A study of Mus musculus with 17 samples.

Results

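The genes described here are 10 genes of glucose uptake and glycolysis: Slc2a1, Hk1, Pfkp, Aldoa, Tpi1, Pgk1, Pgam1, Pkm, Ldha and Pdk1. They were found by matching their symbols to the platform annotation of the array, and each gene is represented by its brightest probe. All 10 had a probe that passed the filter on dim probes, so they are 10 of the 14737 genes tested. The study profiled RNA of whole mouse uterus on Illumina MouseWG-6 v2 bead arrays at 4 times after estradiol (E2), the main ovarian estrogen. The 17 arrays fall into 8 groups. Uteri labelled KO for Egr1, an estrogen-inducible zinc finger transcription factor, have 2 arrays each at 0 h, 3 h, 6 h and 24 h. Wild-type (WT) uteri have 3 arrays at 3 h and 2 at each of the other times. The labels state neither the E2 dose nor the strain, age or ovarian state of the mice, nor the allele behind the knockout, and the 0 h groups are taken only as the labels name them. All values are log2 intensities already normalised between arrays, so each change is relative to the other genes on the same array, and an intensity of one probe cannot be set against that of another.

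Glucose enters cells through facilitative transporters such as SLC2A1 (GLUT1) and is trapped by hexokinase as glucose 6-phosphate. Phosphofructokinase commits the sugar to glycolysis, aldolase and triosephosphate isomerase yield the triose phosphates, and phosphoglycerate kinase, phosphoglycerate mutase and pyruvate kinase carry them to pyruvate with net formation of ATP. Lactate dehydrogenase A turns pyruvate into lactate, while pyruvate dehydrogenase kinases such as PDK1 restrain its entry into mitochondria. Estrogen is known to raise glucose uptake and metabolism in the rodent uterus ahead of the growth of its epithelium and stroma. Many of these genes are known targets of the hypoxia-inducible factor HIF-1, which binds DNA at the core letters ACGTG.

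The upstream sequences of 4 of the genes are shown because Pgk1 and Ldha moved most closely together among the 10 genes, Slc2a1 differed between KO and WT, and Pfkp held the letters of an EGR1 motif. Each run gives the 250 bases before a RefSeq transcript start in assembly GRCm38.p6, in the direction of transcription. Capitals mark ACGTG read on either strand (CACGT on the strand shown is its reverse) in Ldha, Pgk1 and Slc2a1, and GCGTGGGCG in Pfkp. The regions are chr7:46845554-46845803 on the plus strand for Ldha, chrX:106186850-106187099 on the plus strand for Pgk1, chr4:119108495-119108744 on the plus strand for Slc2a1 and chr13:6648772-6649021 on the minus strand for Pfkp.
Ldha: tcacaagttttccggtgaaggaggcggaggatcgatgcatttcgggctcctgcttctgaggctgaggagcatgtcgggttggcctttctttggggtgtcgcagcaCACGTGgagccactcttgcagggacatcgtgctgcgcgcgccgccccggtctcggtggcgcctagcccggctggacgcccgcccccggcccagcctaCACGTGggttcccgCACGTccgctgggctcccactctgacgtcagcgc
Pgk1: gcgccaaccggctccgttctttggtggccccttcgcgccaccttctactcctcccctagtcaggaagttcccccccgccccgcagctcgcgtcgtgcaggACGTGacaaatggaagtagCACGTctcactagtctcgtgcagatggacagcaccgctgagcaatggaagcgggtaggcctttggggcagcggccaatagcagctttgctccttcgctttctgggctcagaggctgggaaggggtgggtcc
Slc2a1: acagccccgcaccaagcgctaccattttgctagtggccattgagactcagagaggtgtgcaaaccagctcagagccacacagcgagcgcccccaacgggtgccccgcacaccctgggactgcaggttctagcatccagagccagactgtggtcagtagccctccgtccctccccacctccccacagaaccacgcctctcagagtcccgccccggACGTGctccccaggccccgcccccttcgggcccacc
Pfkp: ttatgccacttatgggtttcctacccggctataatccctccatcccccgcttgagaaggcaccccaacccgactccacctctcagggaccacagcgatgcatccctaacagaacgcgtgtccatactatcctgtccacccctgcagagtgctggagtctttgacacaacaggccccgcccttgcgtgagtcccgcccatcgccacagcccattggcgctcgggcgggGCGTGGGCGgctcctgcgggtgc

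All 10 genes had at least 1 RefSeq promoter window, counted from 250 bases before to 50 bases after a start, and together they had 16 windows. The letters ACGTG stood on either strand in a window of 7 of the 10 genes (Slc2a1, Hk1, Aldoa, Pgk1, Pgam1, Pkm and Ldha), against 21.8% of all 27025 genes with a window. Per window the numbers were 8 of 16 for the 10 genes and 19.6% of all 32851 windows. Base composition bears on this number: among windows with 60 to 70% G and C, 8 of 11 windows of these genes and 27.3% of 6703 windows held ACGTG. The Aldoa windows with these letters overlap and hold the same site, which both window counts include more than once. The Ldha window had the letters at 3 places, 2 of which were the palindrome CACGTG and so count on both strands, which made 5 matches. At least 3 matches occurred in 1.73% of all windows. The EGR1 motif GCGTGGGCG stood once among the 16 windows, in Pfkp at 23 bases before the start (position -23), and in 0.612% of all windows. The second EGR1 spelling searched, GCGGGGGCG, was in 0 of the 16 windows and in 2.91% of all windows, and the consensus palindrome of the estrogen response element was in 0 of the 16 and in 0.07% of all windows. A match is a description of the letters only, and binding was not measured.

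Within groups the arrays correlated at 0.990 to 0.997 over all 45281 probes. The probe for Egr1 itself averaged 13.55 ± 0.11 at 0 h in KO uteri and 12.37 ± 0.19 in WT uteri (SD, n = 2 each). The log2 difference, KO minus WT, was 1.18 at 0 h, -0.15 at 3 h, 0.73 at 6 h and 1.65 at 24 h, called higher in KO uteri at 0 and 24 h (limma adjusted p = 0.00302 and 0.000147) and not called at 3 and 6 h. Whether that probe lies in the deleted part of the gene is not given here, so it does not check the labels, and KO and WT below mean the libraries labelled KO and labelled WT. At 0 h the first WT array lay apart from the second for several of the 10 genes, with Ldha at 13.07 against 12.41 and Pgk1 at 11.23 against 10.64. Other cell types moved with the groups too. Of 8 adipocyte genes listed 7 were kept (Cfd was not), and all 7 were lower at 3, 6 and 24 h than at 0 h in KO uteri, as were 7, 6 and 6 in WT uteri. Their summed intensity, as log2, was 12.09 and 12.41 in KO uteri at 24 h and 15.30 and 15.51 at 0 h, against 12.39 and 11.89 in WT uteri at 24 h and 14.47 and 15.11 at 0 h. All 10 epithelial genes listed were kept, and 5 were higher and 3 lower at 24 h in KO uteri and 8 and 0 in WT uteri. Summed, they were 14.84 and 14.76 in KO uteri at 24 h and 14.06 and 14.07 at 0 h, against 15.08 and 15.01 in WT uteri at 24 h and 14.17 and 14.0 at 0 h. Of 8 stromal fibroblast genes 0 were higher and 5 lower at 6 h in KO uteri and 0 and 6 in WT uteri. Their sum was 14.93 and 15.07 at 6 h and 15.68 and 15.76 at 0 h in KO uteri, against 14.83 and 14.94 at 6 h and 16.03 and 15.899 at 0 h in WT uteri. Of 9 skeletal muscle genes 6 were kept (Ckm, Myh1 and Myh4 were not), and 1 was higher at 24 h in KO uteri and 2 in WT uteri. Their sum was 12.35 and 12.58 at 24 h and 11.76 and 11.60 at 0 h in KO uteri, against 13.28 and 13.13 at 24 h and 12.30 and 11.60 at 0 h in WT uteri. All 7 macrophage genes kept were lower at 24 h in KO uteri and 0 in WT uteri. The second KO array at 0 h had the highest granulocyte sum, 12.84, while the other 16 arrays lay between 10.92 and 11.14. Of all genes tested, between 37.9% and 46.7% were called in these comparisons against 0 h. The part of these cell types in the changes below was not tested. Fewer cells of a type cannot be told apart from less of its RNA per cell. Of the 8 genes listed for uterine identity 6 were kept, among them Esr1 and Pgr, while Hoxa10 and Msx2 did not pass the filter.

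After E2 the genes followed 3 time courses, each seen in KO and in WT uteri. Hk1 was highest at 3 h. Tpi1 and Pdk1 fell at 3 and 6 h and stood higher again at 24 h. Aldoa, Pgk1, Pgam1, Pkm and Ldha had their highest group mean at 24 h. There Pgk1, by its brightest probe, reached 2.63-fold its 0 h level in KO uteri and 2.29-fold in WT uteri. In WT uteri the 24 h mean of Pgam1 was only 0.11 above that at 3 h, with overlapping arrays (limma adjusted p = 0.221). Ldha in WT uteri rose by 0.33 from 6 to 24 h, not called (limma adjusted p = 0.154). Pfkp and Slc2a1 followed none of the 3 time courses. Pfkp rose by at most 0.29 in KO uteri and 0.44 in WT uteri. Slc2a1 rose in WT uteri and stood high from 0 h on in KO uteri.

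**Figure D1:**
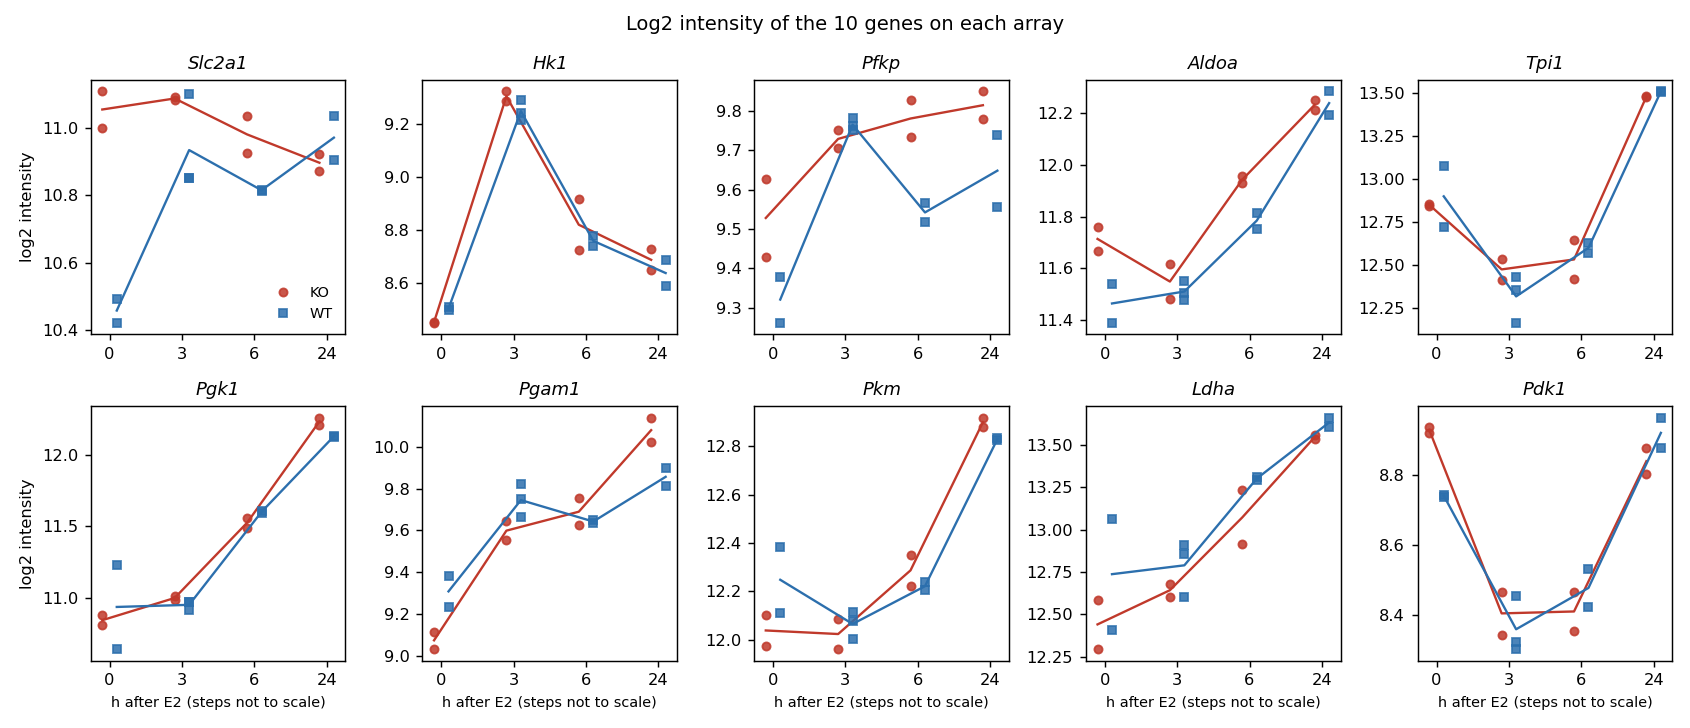
Log2 intensity of the 10 genes (1 panel each, y axes differ) by hours after E2 (x axis). Red circles are KO arrays, blue squares WT arrays, and lines join group means. Hk1 peaks at 3 h, Pgk1 and Ldha are highest at 24 h, and the 2 WT arrays at 0 h lie below all other arrays for Slc2a1.

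In KO uteri 4 of the 10 genes passed the test at 3 h against 0 h (limma, adjusted p under 0.05), beside 40.4% of all genes tested: 2 were higher (19.0% of all genes) and 2 lower (21.4%). At 6 h 9 passed, beside 44.9% of all genes: 7 were higher (21.8%) and 2 lower (23.0%). At 24 h 8 passed, beside 45.7% of all genes: 8 were higher (22.5%) and 0 lower (23.1%). In WT uteri 6 passed at 3 h, beside 46.7% of all genes: 4 were higher (22.2%) and 2 lower (24.5%). At 6 h 9 passed, beside 44.0% of all genes: 7 were higher (21.9%) and 2 lower (22.1%). At 24 h 8 passed, beside 37.9% of all genes: 8 were higher (18.9%) and 0 lower (19.0%). The share called at 3 h was near that of all genes, and at 24 h the calls were all rises. Between 3 and 6 h 4 of the 10 genes passed in KO uteri (3 higher and 1 lower) and 5 in WT uteri (3 higher and 2 lower), beside 23.3% and 26.0% of all genes. Between 6 and 24 h 7 of the 10 genes rose in KO uteri and 6 in WT uteri and 0 fell, beside 38.3% of all genes called in each genotype (19.7% higher and 18.6% lower in KO uteri, 19.3% higher and 19.0% lower in WT uteri). The median change of the 10 genes at 24 h was 0.57 in KO uteri and 0.56 in WT uteri, against 0.00 over all genes in both. The 10 genes and the lists below were chosen with earlier results of these data known. Setting them beside all genes is therefore a description and not a test.

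Single arrays and the choice of scale moved some of these counts. Here and below, counts from refits stand without the share of all genes called in the same fit and cannot be read against it. A left-out WT array cannot change the KO values and acts there only through the shared estimate of the spread. The KO count at 3 h was 7 without the first or without the second WT array at 0 h, the KO count at 6 h was 4 without the first KO array at 0 h, and the WT count at 6 h was 5 without the first WT array at 6 h. Between 3 and 6 h the KO count was 2 without the first KO array at 6 h, and the WT count was 3 without the second WT array at 3 h or the first at 6 h and 2 without the second at 6 h. Of 8 reference genes kept, such as Hprt, Ppia and Tbp, 6 were higher and 1 lower at 24 h in KO uteri and 6 higher and 0 lower in WT uteri. Centring the arrays on them shifted the median of all genes by -0.46 in KO uteri and -0.37 in WT uteri at 24 h. On that scale Pgk1, Pgam1, Pkm and Ldha still rose by 24 h in KO uteri (0.93, 0.55, 0.40 and 0.65), and Aldoa, Pgk1 and Ldha in WT uteri (0.41, 0.83 and 0.53). The calls at 24 h that ended were Aldoa (0.06) and Tpi1 (0.17) in KO uteri and Slc2a1 (0.15), Tpi1 (0.24), Pgam1 (0.18) and Pkm (0.21) in WT uteri. Hk1 and Pfkp changed sign on that scale at 24 h, and Slc2a1 (-0.62) and Pdk1 (-0.55) became lower in KO uteri. Between 6 and 24 h centring shifted the median of all genes by -0.246 in KO uteri and -0.253 in WT uteri. The shares of all genes called on that scale are not given, so the counts cannot be set against them. On that scale 3 genes rose and 2 fell between 6 and 24 h in KO uteri, and 2 rose and 1 fell in WT uteri. The falls were Slc2a1 (-0.33) and Hk1 (-0.38) in KO uteri and Hk1 (-0.37) in WT uteri. At 6 h against 0 h the shift of the median of all genes was -0.21 in KO uteri and -0.12 in WT uteri. The calls at 6 h that ended on that scale were Hk1 (0.15), Pfkp (0.04), Aldoa (0.01) and Pkm (0.03) in KO uteri. In WT uteri they were Slc2a1 (0.24), Hk1 (0.14), Pfkp (0.10), Aldoa (0.20) and Pgam1 (0.22).

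**Figure D2:**
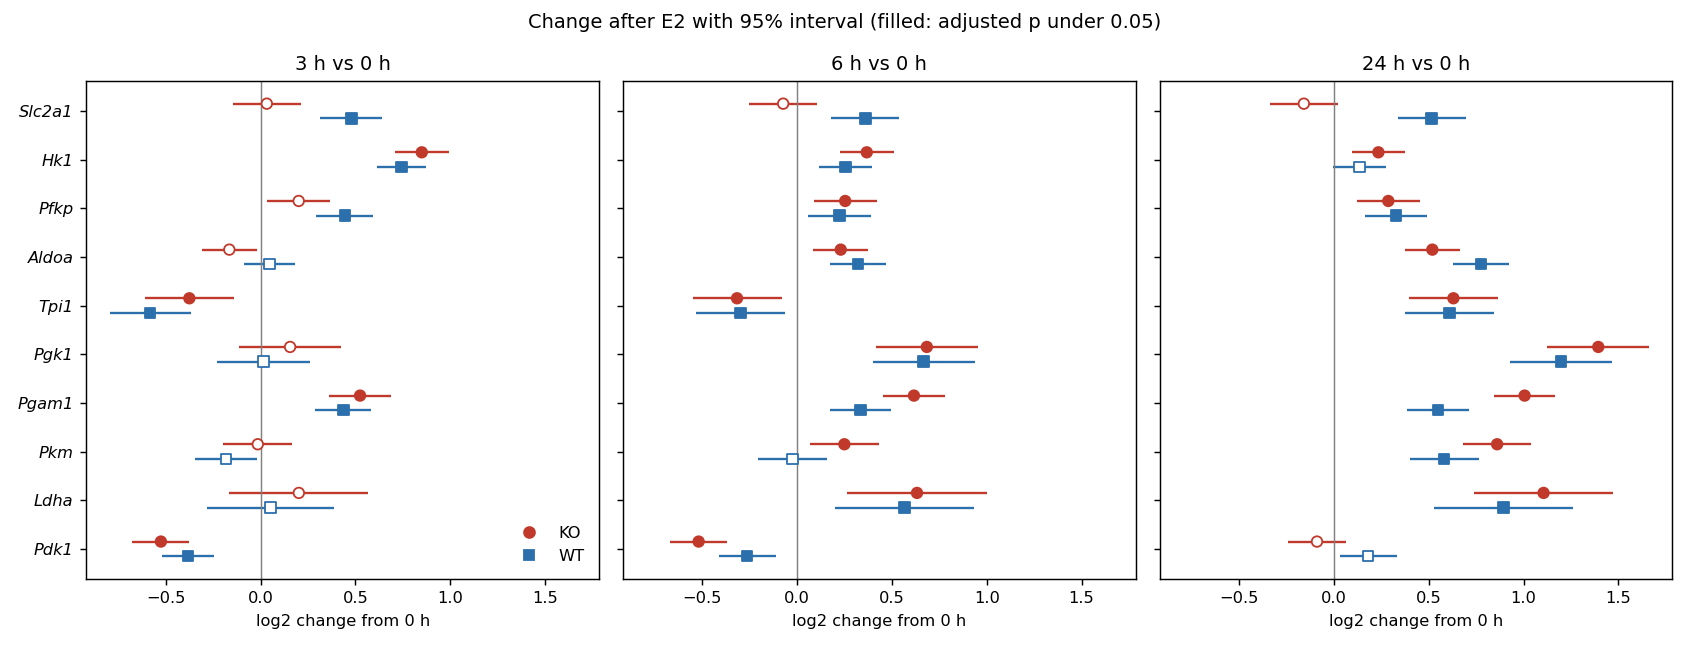
Log2 change from 0 h (x axis) at 3, 6 and 24 h for each of the 10 genes, with bars for the 95% interval of the limma fit. Red circles are KO, blue squares WT, and filled symbols have an adjusted p under 0.05. At 24 h Pgk1, by its brightest probe, shows the largest change in both genotypes, 1.39 in KO and 1.2 in WT uteri, and Slc2a1 is the gene whose KO and WT intervals lie apart at all 3 times.

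Slc2a1 encodes the basal glucose transporter GLUT1, the entry point of the pathway. In KO uteri its log2 intensity was 11.11 and 11.00 at 0 h, 11.09 and 11.08 at 3 h, 10.93 and 11.04 at 6 h, and 10.87 and 10.92 at 24 h. Slc2a1 in WT uteri was 10.42 and 10.49 at 0 h, 11.10, 10.85 and 10.85 at 3 h, 10.82 and 10.81 at 6 h, and 11.04 and 10.91 at 24 h. The WT arrays at 0 h were lower than all other arrays, and the remaining arrays lay between 10.81 and 11.11. In WT uteri Slc2a1 rose 1.39-fold by 3 h (log2 change 0.48, SE 0.08, limma adjusted p = 0.000117) and stayed up by 0.36 at 6 h and 0.52 at 24 h (adjusted p = 0.00267 and 0.000265). In KO uteri its changes of 0.03, -0.07 and -0.16 did not pass the test (adjusted p = 0.812, 0.535 and 0.145).

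Hk1 encodes hexokinase 1, which phosphorylates glucose at the outer mitochondrial membrane. Hk1 in KO uteri was 8.45 and 8.46 at 0 h, 9.32 and 9.29 at 3 h, 8.72 and 8.92 at 6 h, and 8.65 and 8.73 at 24 h. Hk1 in WT uteri was 8.50 and 8.51 at 0 h, 9.29, 9.21 and 9.24 at 3 h, 8.78 and 8.74 at 6 h, and 8.59 and 8.69 at 24 h. Every 3 h array lay above every array of the other times. The rise at 3 h was 1.80-fold in KO uteri (log2 change 0.85, 95% interval 0.71 to 0.99, adjusted p = 3.18e-07) and 1.67-fold in WT uteri (0.74, 0.61 to 0.87, adjusted p = 2.52e-07). Between 3 and 6 h Hk1 then fell by 0.48 in KO uteri and by 0.49 in WT uteri (adjusted p = 0.000199 and 7.5e-05). At 24 h a small rise over 0 h passed in KO uteri (0.23, adjusted p = 0.00882) and missed the threshold in WT uteri (0.13, adjusted p = 0.135). The mean of both Hk1 probes kept gave 0.55 in KO uteri and 0.43 in WT uteri at 3 h, both called. Leaving out the second KO array at 24 h ended the KO call at 24 h (0.20, adjusted p = 0.0823). Centring on reference genes turned the KO value at 24 h to -0.23.

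Pfkp encodes the platelet-type subunit of phosphofructokinase, the committed step of glycolysis. Pfkp in KO uteri was 9.43 and 9.63 at 0 h, 9.75 and 9.71 at 3 h, 9.73 and 9.83 at 6 h, and 9.85 and 9.78 at 24 h. Pfkp in WT uteri was 9.26 and 9.38 at 0 h, 9.76, 9.78 and 9.75 at 3 h, 9.52 and 9.57 at 6 h, and 9.74 and 9.56 at 24 h. All arrays after E2 lay above those at 0 h of the same genotype. The rise at 3 h in WT uteri was 0.44 (SE 0.07, adjusted p = 0.000113), while the KO change of 0.20 fell just outside the threshold (adjusted p = 0.0513). The later rises passed in both genotypes: 0.25 at 6 h and 0.29 at 24 h in KO uteri (adjusted p = 0.0146 and 0.00676), and 0.22 at 6 h and 0.33 at 24 h in WT uteri (adjusted p = 0.0303 and 0.00384). These calls were lost when single arrays were left out. In KO uteri this was so without the first array at 0 h (0.15 at 6 h and 0.19 at 24 h), without the second at 6 h (0.21) and without the first at 24 h (0.25). The WT call at 6 h ended without the first array at 0 h (0.16), the first at 6 h (0.25) or the second at 6 h (0.20), and that at 24 h without the first at 24 h (0.24). With reference genes as the centre the 24 h values were -0.17 in KO uteri and -0.04 in WT uteri. Averaged over the gene's kept probes the changes were 0.10 at 6 h in KO uteri and 0.09 at 6 h and 0.13 at 24 h in WT uteri, none of them called. The KO call at 24 h and the WT call at 3 h stayed with that average.

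Aldoa encodes aldolase A, which splits fructose 1,6-bisphosphate. Aldoa in KO uteri was 11.67 and 11.76 at 0 h, 11.48 and 11.62 at 3 h, 11.93 and 11.96 at 6 h, and 12.25 and 12.21 at 24 h. Aldoa in WT uteri was 11.54 and 11.39 at 0 h, 11.55, 11.50 and 11.48 at 3 h, 11.75 and 11.82 at 6 h, and 12.29 and 12.19 at 24 h. The 24 h arrays were the highest in both genotypes and the 3 h arrays of the 2 genotypes overlapped. At 24 h Aldoa was 1.43-fold higher than at 0 h in KO uteri (0.52, SE 0.07, adjusted p = 2.3e-05) and 1.71-fold higher in WT uteri (0.78, SE 0.07, adjusted p = 3e-06). At 6 h it had risen by 0.23 in KO uteri and by 0.32 in WT uteri (adjusted p = 0.0123 and 0.00136), and the KO call was lost without the first KO array at 0 h (0.18) or the second at 6 h (0.22).

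Tpi1 encodes triosephosphate isomerase, which makes both trioses available to the later steps of the pathway. Tpi1 in KO uteri was 12.84 and 12.86 at 0 h, 12.41 and 12.53 at 3 h, 12.64 and 12.42 at 6 h, and 13.48 on both arrays at 24 h. Tpi1 in WT uteri was 13.08 and 12.72 at 0 h, 12.43, 12.35 and 12.16 at 3 h, 12.63 and 12.57 at 6 h, and 13.51 on both arrays at 24 h. The 3 and 6 h arrays lay below and the 24 h arrays above those at 0 h of the same genotype. By 3 h Tpi1 fell by 0.38 in KO uteri and by 0.58 in WT uteri (adjusted p = 0.0128 and 0.000225), and at 6 h it was still down by -0.32 and -0.30 (adjusted p = 0.0282 in KO and 0.0382 in WT uteri). Between 6 and 24 h it rose 1.93-fold in KO uteri and 1.88-fold in WT uteri (adjusted p = 1.32e-05 and 1.85e-05), to 0.63 and 0.61 above 0 h (adjusted p = 0.000257 and 0.000582). A dimmer Tpi1 probe changed by -0.64 at 3 h and 0.87 at 24 h in KO uteri and by -0.65 and 0.99 in WT uteri. The third probe kept, with a mean of 8.19 close to the array median, changed by -0.09 and 0.09 in KO uteri and by 0.05 and 0.06 in WT uteri, none called. The fall in KO uteri at 3 h was not called without the second KO array at 0 h (-0.37) or the first at 3 h (-0.32). That at 6 h was not called without either KO array at 0 h (-0.32 and -0.31) or the second at 6 h (-0.21). The fall in WT uteri at 6 h was -0.12 without the first WT array at 0 h and was not called without either WT array at 6 h (-0.33 and -0.27) or at 24 h (-0.30 each), while it was -0.48 and called without the second at 0 h.

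Pgk1 encodes phosphoglycerate kinase 1, the first ATP-forming step of glycolysis. Pgk1 in KO uteri was 10.81 and 10.87 at 0 h, 11.01 and 10.98 at 3 h, 11.56 and 11.49 at 6 h, and 12.26 and 12.21 at 24 h. Pgk1 in WT uteri was 11.23 and 10.64 at 0 h, 10.97, 10.91 and 10.97 at 3 h, 11.59 and 11.61 at 6 h, and 12.13 on both arrays at 24 h. The 6 h arrays stood above all earlier ones and the 24 h arrays above those, in both genotypes. The change at 24 h was 1.39 in KO uteri (95% interval 1.13 to 1.66, adjusted p = 1.19e-06) and 1.2 in WT uteri (0.93 to 1.47, adjusted p = 1.02e-05), the largest of the 10 genes in both by the brightest probes. The second Pgk1 probe kept, with a mean of 8.19 close to the array median, changed by 0.13 in KO uteri and 0.06 in WT uteri at 24 h, neither called. The mean of both probes gave 0.76 in KO uteri and 0.63 in WT uteri, both called and below the Ldha changes. At 6 h the change of the brightest probe was 0.68 in KO uteri and 0.67 in WT uteri (limma adjusted p = 0.00039 and 0.000529). The second probe changed by -0.02 in KO uteri and 0.11 in WT uteri there, neither called. The WT values of the brightest probe at 6 and 24 h carry the spread of the WT arrays at 0 h. Without the second of these the 6 h change was 0.37, still called. At 3 h, where the WT value was 0.01, it was -0.28 without that array (adjusted p = 0.00189) and 0.31, also called, without the first.

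Pgam1 encodes the phosphoglycerate mutase that follows. Pgam1 in KO uteri was 9.03 and 9.12 at 0 h, 9.64 and 9.55 at 3 h, 9.75 and 9.62 at 6 h, and 10.02 and 10.14 at 24 h. Pgam1 in WT uteri was 9.38 and 9.24 at 0 h, 9.75, 9.82 and 9.66 at 3 h, 9.64 and 9.65 at 6 h, and 9.90 and 9.81 at 24 h. All arrays after E2 exceeded those at 0 h. It rose early, by 0.52 in KO uteri and 0.44 in WT uteri at 3 h (adjusted p = 7.03e-05 and 0.000112), and by 24 h the rise was 2.01-fold in KO uteri and 1.46-fold in WT uteri (adjusted p = 4.25e-07 and 8.1e-05). A dimmer Pgam1 probe also rose by 24 h, by 0.46 in KO uteri and 0.43 in WT uteri.

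Pkm encodes the muscle-type pyruvate kinases, whose isoforms the probe used here is not known to separate. Pkm in KO uteri was 11.98 and 12.10 at 0 h, 11.96 and 12.09 at 3 h, 12.35 and 12.22 at 6 h, and 12.92 and 12.88 at 24 h. Pkm in WT uteri was 12.39 and 12.11 at 0 h, 12.11, 12.00 and 12.08 at 3 h, 12.21 and 12.24 at 6 h, and 12.83 on both arrays at 24 h. The 24 h arrays were above all others in both genotypes. Pkm rose 1.82-fold in KO uteri (0.86, SE 0.08, adjusted p = 2.2e-06) and 1.5-fold in WT uteri (0.58, SE 0.08, adjusted p = 0.000118) by 24 h. The second Pkm probe kept, with a mean of 8.15, changed by 0.12 and 0.04, neither called, and the mean of both gave 0.49 in KO uteri and 0.31 in WT uteri, both called. At 3 h no change passed: -0.01 in KO uteri and -0.18 in WT uteri (adjusted p = 0.921 and 0.0672). Without the second WT array at 0 h the WT value at 3 h was -0.32 and was called. At 6 h the KO rise of 0.25 passed (adjusted p = 0.0264), but not without the first KO array at 0 h (0.19) or the first at 6 h (0.18).

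Ldha encodes lactate dehydrogenase A, which regenerates NAD+ as it makes lactate. Ldha in KO uteri was 12.29 and 12.59 at 0 h, 12.60 and 12.68 at 3 h, 13.23 and 12.91 at 6 h, and 13.56 and 13.54 at 24 h. Ldha in WT uteri was 13.07 and 12.41 at 0 h, 12.91, 12.60 and 12.86 at 3 h, 13.29 and 13.31 at 6 h, and 13.61 and 13.66 at 24 h. The 24 h arrays were the highest in both genotypes, and the WT arrays at 0 h spanned the 3 h ones. By 24 h Ldha rose 2.15-fold in KO uteri (1.11, 95% interval 0.74 to 1.47, adjusted p = 9.59e-05) and 1.86-fold in WT uteri (0.90, 0.53 to 1.26, adjusted p = 0.000916). At 6 h the rises were 0.63 and 0.56 (adjusted p = 0.00708 in KO and 0.0147 in WT uteri). Without the second WT array at 0 h the WT change was 0.57 at 24 h, still called, and 0.24 at 6 h (adjusted p = 0.231), and without the first it was 0.89 at 6 h. The WT call at 6 h also ended without either array at 6 h (0.57 and 0.56), and the KO call at 6 h ended without the first KO array at 0 h (0.49) or at 6 h (0.47). At 3 h the WT change was 0.05, and it was 0.38 and called without the first WT array at 0 h and -0.28, not called, without the second.

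Pdk1 encodes pyruvate dehydrogenase kinase 1, which inhibits the pyruvate dehydrogenase complex. Pdk1 in KO uteri was 8.92 and 8.94 at 0 h, 8.34 and 8.47 at 3 h, 8.36 and 8.46 at 6 h, and 8.80 and 8.88 at 24 h. Pdk1 in WT uteri was 8.74 on both arrays at 0 h, 8.45, 8.30 and 8.32 at 3 h, 8.42 and 8.53 at 6 h, and 8.96 and 8.88 at 24 h. All 3 and 6 h arrays lay below all 0 and 24 h arrays. At 3 h Pdk1 fell by 0.53 in KO uteri and by 0.38 in WT uteri (adjusted p = 3.61e-05 and 0.000183), and at 6 h it was at -0.52 and -0.26 (adjusted p = 2.78e-05 in KO and 0.00658 in WT uteri). The WT call at 6 h ended without the first WT array at 6 h (-0.21, adjusted p = 0.0733). From 6 to 24 h it rose by 0.43 in KO uteri and by 0.44 in WT uteri (adjusted p = 0.000224 and 0.000174), which left it at -0.09 in KO and 0.18 in WT uteri relative to 0 h, neither called (adjusted p = 0.352 and 0.058). With the mean of both Pdk1 probes the KO value at 24 h was -0.14 and called lower (adjusted p = 0.0173). The second probe, close to the array median at 8.16, changed by -0.19 there.

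The second question of the design is whether uteri labelled KO differed from WT uteri. At 0 h Slc2a1 was the 1 gene of the 10 that passed, beside 4.43% of all genes (2.24% higher and 2.19% lower). It was 1.52-fold higher in KO uteri (11.11 and 11.00 against 10.42 and 10.49 in WT uteri, log2 difference 0.60, 95% interval 0.42 to 0.78, limma adjusted p = 0.00164). With a fit to the 4 arrays at 0 h alone its adjusted p was 0.0788. In the same comparison the 7 adipocyte genes had a median of 0.77 with 0 called. Of the 7 macrophage genes, with a median of 0.60, 1 was higher in KO uteri. The summed macrophage intensity at 0 h was 13.60 and 14.38 in KO uteri and 13.56 and 13.52 in WT uteri. Only the second KO array thus stood apart from the WT arrays. The part of adipocyte and macrophage genes in the Slc2a1 difference was not tested. At 3, 6 and 24 h 0 of the 10 genes passed, beside 4.23%, 0.631% and 8.35% of all genes. At an unadjusted p under 0.05 there were 6, 0, 2 and 2 genes at 0, 3, 6 and 24 h, beside 18.4%, 18.7%, 11.8% and 21.1% of all genes. The differences of the other 9 genes at 0 h lay between -0.30 for Ldha and 0.25 for Aldoa. Without the second WT array at 0 h 5 genes passed there: Pgk1 (-0.39), Pgam1 (-0.31), Pkm (-0.35) and Ldha (-0.62), all lower in KO uteri, beside Slc2a1. Without either KO array at 3 h Aldoa passed as well at 0.25, which made 2.

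Averaged over the 4 times, Slc2a1 was higher by 0.21 in KO uteri (adjusted p = 0.00488) and Pfkp by 0.14 (adjusted p = 0.0283), 2 of 10 beside 9.03% of all genes. The Slc2a1 call held whichever of the 17 arrays was left out. The Pfkp call ended when any 1 of 7 arrays was left out: the second KO array at 0 h (0.12), the second KO at 6 h (0.13), the first KO at 24 h (0.14), the first WT at 0 h (0.13), the first or second WT at 6 h (0.14 and 0.15) or the second WT at 24 h (0.12). It also ended with the mean of the gene's probes (0.08, adjusted p = 0.0686), with reference genes as the centre (0.18, adjusted p = 0.109) and with the replicate block (0.14, adjusted p = 0.0587). By the interaction (the E2 change in KO uteri less that in WT uteri), Slc2a1 responded less in KO uteri at 24 h (-0.67, 95% interval -0.93 to -0.42, limma adjusted p = 0.00586). Pgam1 responded more (0.46, 0.23 to 0.69, adjusted p = 0.0221), which made 2 of 10 beside 7.27% of all genes. KO minus WT for Slc2a1 was 0.60, 0.15, 0.17 and -0.07 at 0, 3, 6 and 24 h. Its 0 h call, average, interaction and joint test thus draw on the same 0 h arrays and are not separate results. Leaving out 1 array cannot show a shift shared by both WT arrays at 0 h. The Slc2a1 interaction at 24 h was also called whichever array was left out. At 3 and 6 h it was -0.45 and -0.43 and did not pass (adjusted p = 0.0809 and 0.16), and 0 of the 10 genes passed at either time, beside 1.09% and 0.400% of all genes. At an unadjusted p under 0.05 there were 3, 4 and 5 genes at 3, 6 and 24 h, beside 13.7%, 11.1% and 22.5% of all genes. The Pgam1 interaction was not called without the first KO array at 0 h (0.42), the second KO at 24 h (0.40), the first WT at 0 h (0.38) or the second WT at 24 h (0.41). The dimmer Pgam1 probe gave 0.03 and was not called, the mean of both probes gave 0.25 (adjusted p = 0.0719), and centring on reference genes gave 0.37 (adjusted p = 0.306). Without the second WT array at 0 h 4 genes passed at 24 h, with Pgk1 at 0.49 and Pkm at 0.42 in addition, and Pgk1 passed at 3 h (0.44). For the other 8 genes the 95% intervals of the interaction at 24 h lay between -0.48, the lower bound for Pdk1, and 0.73, the upper bound for Ldha.

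**Figure D3:**
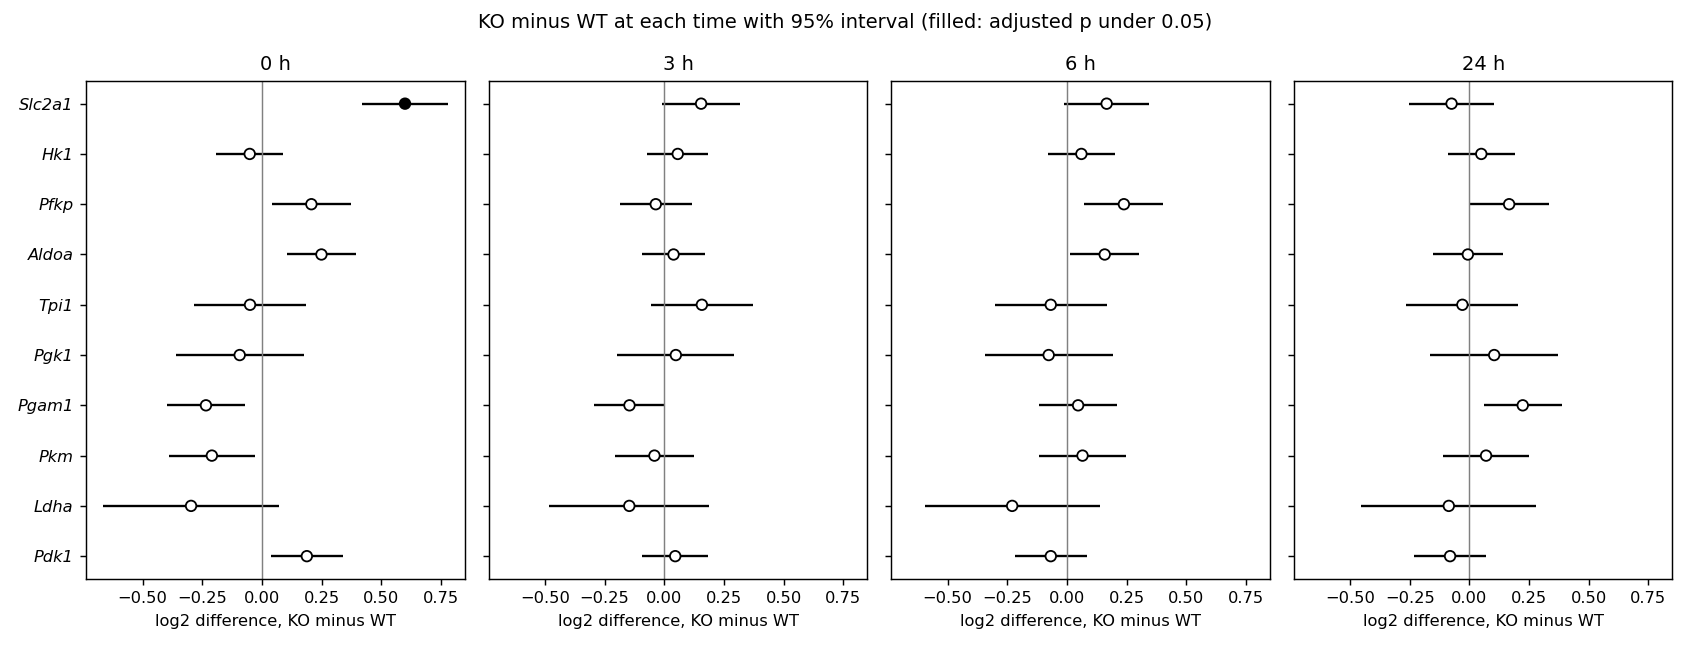
Log2 difference, KO minus WT (x axis), at each time for the 10 genes, with bars for the 95% interval of the limma fit and filled symbols for an adjusted p under 0.05. Slc2a1 at 0 h, at 0.60, is the 1 filled symbol, and its difference at 24 h is -0.07.

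Tested over all times together, the interaction passed for Slc2a1 (moderated F = 11.5, limma adjusted p = 0.02) and Pgam1 (F = 7.48, adjusted p = 0.0497), 2 of 10 beside 6.83% of all genes. The Slc2a1 test was lost without the first KO array at 0 h (F = 7.25), the first or second KO array at 24 h (8.90 and 9.86) or the first WT array at 24 h (8.92). Its F was 19.1 without the first WT array at 3 h. The Pgam1 test was lost when any 1 of 13 arrays was left out, with F between 4.92 and 8.56. Without the second WT array at 0 h Pgk1 (F = 14) and Pkm (F = 6.43) passed as well.

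The order of the 8 groups differed between genes. For Slc2a1 the KO groups at 3 and 0 h came first with means of 11.09 and 11.06. The first 7 groups down to WT at 6 h (10.82) each differed from the next by no more than 0.08, none past the test. These steps do not compare the ends of the run. KO at 3 h (11.09 and 11.08) did not overlap WT at 6 h (10.82 and 10.81), and a test of that pair is not given. WT at 0 h, at 10.46, lay below WT at 6 h by more than the spread (adjusted p = 0.00267). For Hk1 the KO and WT groups at 3 h, at 9.30 and 9.25, did not differ past the test (adjusted p = 0.686), and the next group, KO at 6 h, was lower by 0.43 (adjusted p = 0.000241).

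Across the 17 arrays Aldoa, Pgk1, Pkm and Ldha formed a tight block: Pearson's r was 0.95 between Pgk1 and Ldha, 0.93 between Pgk1 and Aldoa, 0.93 between Pgk1 and Pkm and 0.82 between Aldoa and Ldha. Tpi1 joined Pkm at 0.89 and Pdk1 at 0.84. Hk1 ran opposite to Pdk1 at -0.79 and to Tpi1 at -0.64, and Slc2a1 was closest to Pfkp at 0.64. These values describe 17 arrays that share the time course and the same normalisation, and no test was made on them. The genes with the highest mean r with the 10 genes over the 17 arrays were Ap2m1 (0.602), Aacs (0.600), Ankrd13a (0.595), Sdhb (0.593) and Vdac2 (0.593). Sdhb, a subunit of succinate dehydrogenase, averaged 9.88 at 0 h, 10.31 at 3 h, 10.39 at 6 h and 11.07 at 24 h in KO uteri and 9.95, 10.27, 10.47 and 10.82 in WT uteri.

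**Figure D4:**
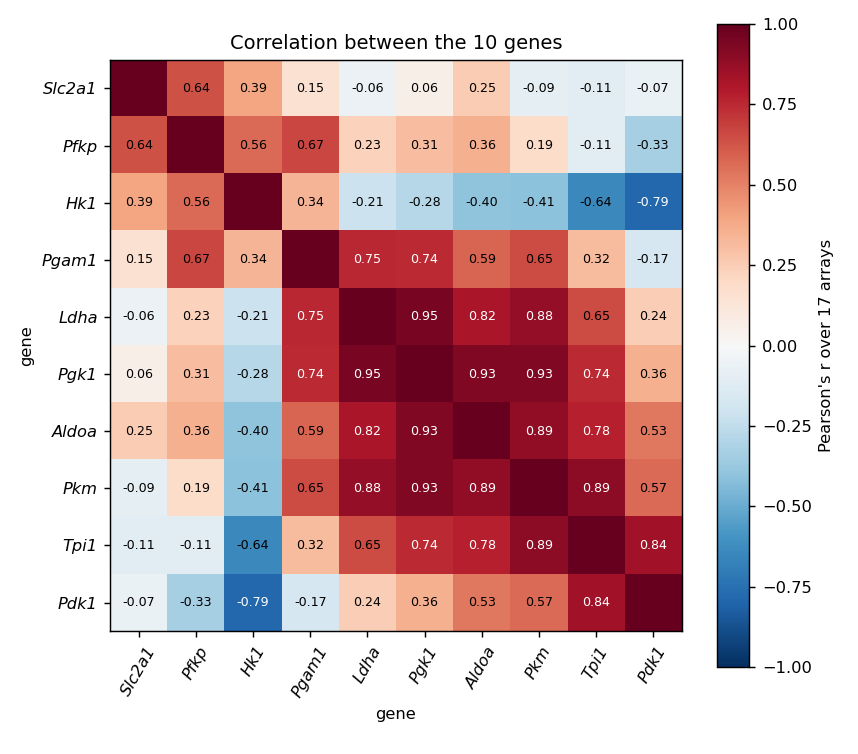
Pearson's r between each pair of the 10 genes over the 17 arrays, from -1 (blue) to 1 (red). Pgk1, Ldha, Aldoa and Pkm form a block with r from 0.82 to 0.95, and Hk1 is opposite to Pdk1 at -0.79.

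Of 26 further genes of glucose uptake and glycolysis 18 were tested; Hk2, Gpi1 and Eno1 are among the 8 not analysed here. In KO uteri 2 were higher and 4 lower at 3 h, 2 and 5 at 6 h, and 2 and 6 at 24 h. The WT counts were 3 and 6, 3 and 6, and 2 and 3. Of all genes 40.4%, 44.9% and 45.7% were called at these times in KO uteri. The shares in WT uteri were 46.7%, 44.0% and 37.9%. Gapdh, the enzyme between Tpi1 and Pgk1, also ended above its 0 h level: it was 13.56 and 13.49 at 24 h and 12.31 and 12.40 at 0 h in KO uteri, and 13.32 and 13.45 at 24 h and 12.65 and 12.11 at 0 h in WT uteri. Its changes were 0.57, 0.93 and 1.17 at 3, 6 and 24 h in KO uteri and 0.75, 1.13 and 1.01 in WT uteri, all called. The other phosphofructokinase subunits did not follow Pfkp. Pfkm, the muscle type, was 11.08 and 10.99 at 0 h, 10.27 and 10.21 at 3 h, 9.51 and 9.63 at 6 h, and 11.05 and 11.00 at 24 h in KO uteri. Pfkm in WT uteri was 10.89 and 11.00 at 0 h, 9.99, 9.79 and 9.69 at 3 h, 9.53 and 9.41 at 6 h, and 10.89 and 10.93 at 24 h. It fell by 1.47 in KO uteri and by 1.48 in WT uteri at 6 h (adjusted p = 4.52e-08 and 3.93e-08) and was at -0.01 and -0.04 at 24 h, not called. Pfkl, the liver type, changed by -0.78 and -0.80 at 6 h (adjusted p = 1.28e-05 in KO and 1.19e-05 in WT uteri). Slc2a3, the high-affinity transporter GLUT3, rose by 1.14 in KO uteri at 3 h (adjusted p = 0.00176), where the WT change of 0.45 was not called, and it fell at 24 h by 0.86 in KO uteri and by 1.15 in WT uteri (adjusted p = 0.0104 and 0.00206). Of the 18 genes 1 differed between KO and WT at 3 h, Pfkm (0.41, limma adjusted p = 0.011), beside 4.23% of all genes. At 0, 6 and 24 h 0 differed, beside 4.43%, 0.631% and 8.35%.

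Beyond pyruvate, 14 of 18 listed genes of lactate and pyruvate handling were tested. At 24 h 3 were higher and 4 lower in KO uteri and 4 higher and 5 lower in WT uteri. Among all genes 22.5% were higher and 23.1% lower in KO uteri at 24 h, and 18.9% and 19.0% in WT uteri. Pdk4, a pyruvate dehydrogenase kinase known to rise in fasting, had the largest called change of the list at 24 h in both genotypes. Pdk4 in KO uteri was 10.56 and 10.42 at 0 h, 10.98 and 10.75 at 3 h, 9.42 and 10.18 at 6 h, and 8.55 and 8.51 at 24 h. Pdk4 in WT uteri was 9.32 and 9.88 at 0 h, 11.55, 11.52 and 11.49 at 3 h, 9.84 and 9.75 at 6 h, and 8.45 and 8.58 at 24 h. The WT arrays at 3 h were above all others, and both genotypes were lowest at 24 h. Like Slc2a1, Pdk4 was higher in KO uteri at 0 h (0.90, adjusted p = 0.0205), and its interaction at 3 h was -1.56 (adjusted p = 0.0158). Pdk3, another kinase of the family, rose by 0.81 in KO uteri and 0.38 in WT uteri at 24 h. The opposing phosphatase Pdp1 was lower at all 3 times in both genotypes, by between -0.60 and -0.24.

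Glucose 6-phosphate also leaves glycolysis by the pentose phosphate pathway and for glycogen. Of 7 pentose phosphate genes 5 were tested. At 3 h 0 were higher and 3 lower in KO uteri and 0 and 4 in WT uteri. The counts at 24 h were 3 and 1 in KO uteri and 2 and 1 in WT uteri. The shares of all genes called in KO and WT uteri were 40.4% and 46.7% at 3 h and 45.7% and 37.9% at 24 h. Taldo1 (transaldolase) rose by 0.84 in both genotypes at 24 h (adjusted p = 0.000236 in KO and 0.000433 in WT uteri), and Pgls (6-phosphogluconolactonase) by 0.97 and 0.58. Rpe (ribulose phosphate epimerase) was lower at all 3 times, between -1.0 and -0.68. Of 12 glycogen genes 9 were tested, and 4 were lower in KO uteri and 3 in WT uteri at 6 h. Beside them 23.0% and 22.1% of all genes were lower. Pygl, a glycogen phosphorylase, fell by 1.79 in KO uteri and by 1.93 in WT uteri at 6 h (adjusted p = 2.53e-06 and 1.58e-06), and Pygb, the brain type, changed by -1.55 and -1.02. Of 6 gluconeogenesis genes 5 were tested. At 24 h 1 was higher in each genotype, G6pc3, beside 22.5% (KO) and 18.9% (WT) of all genes.

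Of 17 listed genes of the TCA cycle, which oxidises pyruvate further, 16 were tested. At 24 h 11 of the 16 were higher and 0 lower in KO uteri (22.5% of all genes were higher) and 10 were higher and 0 lower in WT uteri (18.9%), with medians of 0.59 and 0.40 against 0.00 over all genes. Cs (citrate synthase) was 12.25 and 12.31 at 24 h and 11.09 on both arrays at 0 h in KO uteri, and 12.15 and 12.13 at 24 h and 11.44 and 10.82 at 0 h in WT uteri. Mdh2, the mitochondrial malate dehydrogenase, rose by 1.2 in KO uteri and by 1.0 in WT uteri (adjusted p = 3.97e-06 and 4.45e-05). At 6 h Idh2, an NADP-dependent isocitrate dehydrogenase, was lower, by -1.27 and -1.03.

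Among 14 listed regulators of glycolytic genes, all tested, 6 were higher and 2 lower at 3 h in KO uteri and 9 and 1 in WT uteri. Among all genes 19.0% were higher and 21.4% lower at 3 h in KO uteri, and 22.2% and 24.5% in WT uteri. Txnip, an arrestin-like protein known to restrain glucose uptake through GLUT1, had the largest change of the list at each time in both genotypes. Txnip in KO uteri was 15.14 on both arrays at 0 h, 13.46 and 13.99 at 3 h, 13.07 and 13.75 at 6 h, and 12.46 and 12.36 at 24 h. Txnip in WT uteri was 14.65 and 15.15 at 0 h, 12.65, 13.07 and 12.48 at 3 h, 13.44 and 13.32 at 6 h, and 12.71 and 12.89 at 24 h. All arrays after E2 lay below all 0 h arrays. Txnip fell by 2.73 in KO uteri and by 2.1 in WT uteri at 24 h (adjusted p = 9.01e-07 and 1.55e-05), and at 3 h it was higher in KO than in WT uteri (0.99, adjusted p = 0.0188). Its relative Arrdc4 rose at all 3 times, by 1.34 in KO uteri and 1.08 in WT uteri at 6 h. Hif1a, the oxygen-regulated subunit of HIF-1, rose by 0.66 and 0.77 at 3 and 6 h in KO uteri and by 0.97 and 0.98 in WT uteri, all called. Mlxipl (ChREBP), a glucose-sensing factor, rose by 1.23 in KO uteri and 1.33 in WT uteri at 3 h and was lower at 24 h (-0.63 and -0.56). Egln3, a prolyl hydroxylase that acts on HIF, rose by 0.85 in KO uteri and 1.63 in WT uteri at 24 h. It was lower in KO than in WT uteri at 24 h (-0.82, adjusted p = 0.000421, interaction -0.78, adjusted p = 0.00862) and higher at 6 h (0.56, adjusted p = 0.0299).

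**Figure D5:**
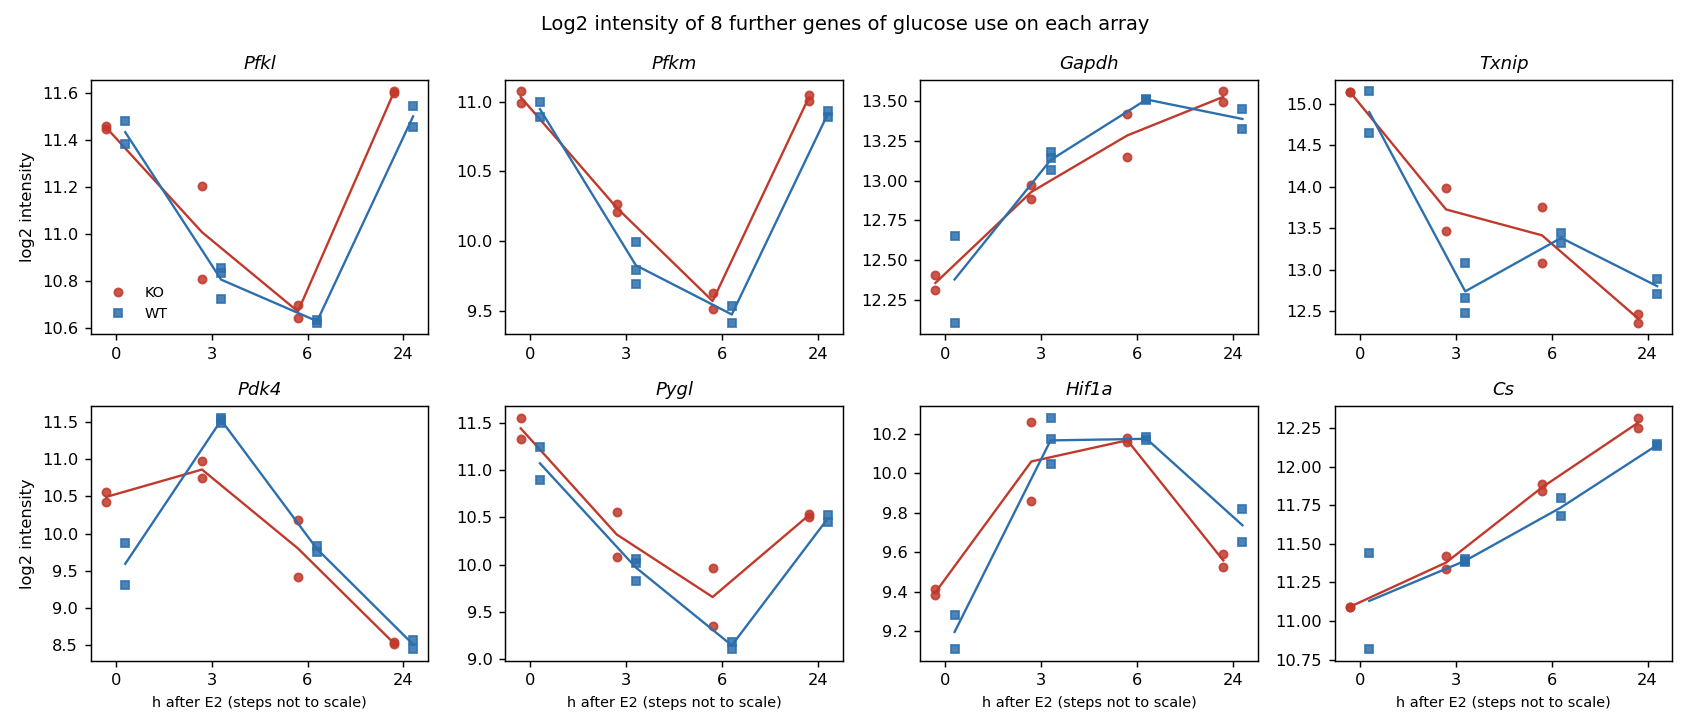
Log2 intensity of 8 further genes of glucose use (1 panel each, y axes differ) by hours after E2 (x axis), with KO arrays as red circles, WT arrays as blue squares and lines through group means. Pfkl and Pfkm are lowest at 6 h and not called against 0 h at 24 h, Txnip is highest at 0 h, and Cs and Gapdh end above their 0 h level.

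Known hypoxia-response genes outside glycolysis did not move as 1 group. Of 13 listed 11 were tested, and at 3 h 4 were higher and 3 lower in KO uteri and 5 and 4 in WT uteri. At 24 h 2 were higher and 5 lower in KO uteri and 3 and 5 in WT uteri. The shares of all genes called were 40.4% (KO) and 46.7% (WT) at 3 h and 45.7% and 37.9% at 24 h. Vegfa, the vascular growth factor and a known estrogen target in uterus, rose by 2.20 in KO uteri and by 1.86 in WT uteri at 3 h, and P4ha2, a collagen prolyl hydroxylase, by 3.24 and 2.76. Bnip3l, a mitophagy receptor, had log2 changes of -2.00 in KO uteri and -2.07 in WT uteri at 6 h, and Ndrg1 of -0.97 and -0.71, all called.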

How the data were processed

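Biotin-labelled total RNA of mouse uteri was put on Illumina MouseWG-6 v2 arrays, per the labels' protocols, and BeadStudio is named without a version, per the submitters' processing notes. The deposited values are log2 intensities. The authors' table is quantile normalised between arrays, as its 17 columns share the same quantiles (median 8.205). No source used here states a background correction, and differences of dim probes may be compressed. Arrays have no read depth, and their number limits the precision.

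Of 45281 probes 34885 had 1 gene symbol in the platform annotation. Probes over the median of their array in 2 or more of the 17 arrays stayed in, and the brightest stood for its gene, leaving 14737 genes. The 8 group means were fitted with limma 3.58.1 in R 4.3.3 with empirical Bayes moderation (9 residual and 4.56 prior degrees of freedom). Adjusted p-values are limma's, two-sided, Benjamini-Hochberg over the 14737 genes within a comparison, with a threshold of 0.05, and intervals are 95%. Because no label says that the arrays of a group stem from different animals, the p-values cover the spread between these arrays alone, and that spread may be technical. The fit was tested on simulated data. Replicate numbers were checked for pairing over 21 pairs of groups. Deviations of same-numbered arrays correlated at -0.195 to 0.299, over 0.1 in 4 pairs, and no block was used. Titles letter the arrays, and the KO arrays at 3 h, lettered B and C, carry the numbers 1 and 2. In the other groups numbers 1 and 2 are letters A and B. The check thus does not decide whether arrays of the same letter are paired. Promoter windows are RefSeq's for GRCm38.p6. The genes named are the 10 genes, up to 4 genes of each further list with the largest called change in a comparison, and the 5 genes most alike in pattern. The 10 genes and all lists were chosen with earlier results of these data known.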

Additional observations from a re-analysis of the deposited data

Results flagged for a closer look

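The E2 responses of 2 of the 10 genes differed between KO and WT uteri by a test of the difference itself. Of all genes 7.27% passed that test at 24 h and 6.83% passed the joint test over the 3 times. For Slc2a1 the KO change minus the WT change at 24 h was -0.67 (limma adjusted p = 0.00586), and the joint test over the 3 times gave F = 11.5 (adjusted p = 0.02). For Pgam1 the same difference at 24 h was 0.46 (adjusted p = 0.0221) and the joint F was 7.48 (adjusted p = 0.0497). The Pgam1 difference at 24 h was not called with the mean of both probes (0.25, limma adjusted p = 0.0719). With reference genes as the centre it was 0.37 (adjusted p = 0.306), and neither joint test passed. The Pgam1 calls also ended when certain single arrays were left out. All of these tests draw on the 0 h arrays, where KO minus WT was 0.60 for Slc2a1 and -0.23 for Pgam1. At 24 h KO minus WT was -0.07 for Slc2a1 and 0.22 for Pgam1.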

How the results depend on the processing

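Counts below are of the 10 genes called. They stand without the share of all genes called in the same fit and cannot be read against it. Centring on reference genes gave 5 (KO) and 4 (WT) at 6 h against 0 h, 3 in WT uteri at 24 h against 0 h, 2 (KO) and 3 (WT) at 6 h against 3 h, 3 in WT uteri at 24 h against 6 h (2 rises and 1 fall), 1 for the interaction at 24 h, 1 averaged over times and 0 for the joint test. It reversed Hk1 (-0.23) and Pfkp (-0.17) in KO uteri and Pfkp (-0.042) in WT uteri at 24 h against 0 h, and Pgam1 at 24 h against 6 h in WT uteri (-0.039). The cause was not tested, though 6 of the 8 reference genes were themselves higher at 24 h than at 0 h in each genotype. Fitting only the arrays compared, which has fewer residual degrees of freedom, gave 2 for KO 6 h against 3 h, 0 for KO against WT at 0 h, 1 at 24 h and 1 for the interaction at 24 h. The mean of a gene's probes gave 2 for KO against WT at 0 h, 1 for the interaction at 24 h and 1 for the joint test, and centring on the array median gave 2 for KO against WT at 0 h. The replicate block is by number, which is not known to pair the arrays. With it 1 gene was called averaged over times and 1 in the joint test. The joint test gave 1 without the filter and 1 with an intensity trend.

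Leaving out 1 array at a time gave 3 to 7, 4 to 9 and 7 to 8 genes in KO uteri and 6 to 8, 5 to 9 and 7 to 9 in WT uteri at 3, 6 and 24 h against 0 h. It gave 2 to 5 (KO) and 2 to 6 (WT) at 6 h against 3 h, and 6 to 8 (KO) and 5 to 7 (WT) at 24 h against 6 h. KO against WT gave 1 to 5 at 0 h and 0 at the other times, the interaction 0 to 1, 0 and 1 to 4 at 3, 6 and 24 h, the average 1 to 3 and the joint test 0 to 4. Pgk1 in WT uteri at 3 h ran from -0.28, without the second WT array at 0 h, to 0.31. Over the 190 changes and differences of single genes, leaving out 1 array kept the side of the threshold in 3104 fits, lost the call in 85, gained it in 40 and turned the sign with a call in 1, while uncalled values near 0 could change sign. For Pgk1 and Pkm a second probe close to the array median changed less at 24 h than the brightest probe.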
